A study of Mus musculus with 2 samples.

Results

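The trace amine-associated receptor (Taar) genes encode G protein-coupled receptors for amines. In the mouse they form 1 cluster on chromosome 10. All of them except Taar1 are known as olfactory receptors of the main olfactory epithelium, where a neuron that has chosen a Taar gene expresses that gene in place of an odorant receptor gene. Taar1 is known mainly as a brain receptor for trace amines such as tyramine that modulates monoamine signalling. A pair of enhancers within the cluster is known to be needed for the olfactory Taar genes.

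The members described here are the 7 single-copy genes Taar1, Taar2, Taar3, Taar4, Taar5, Taar6 and Taar9, chosen by name and located in the GENCODE M21 annotation of GRCm38. They are 7 of 15 protein-coding Taar genes and of 21755 protein-coding genes on chromosomes 1 to 19 and X. The other 8 belong to the multi-copy Taar7 and Taar8 groups.

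The data came from in situ Hi-C, a method that ligates and sequences DNA ends lying close together in fixed nuclei. There was 1 group, mature olfactory sensory neurons sorted for expression of Olfr1507 (MOR28), an odorant receptor gene, from adult MOR28-GFP mice of mixed sex on the 129P2/OlaHsd strain, untreated. The 2 biological replicates held 170000 and 220000 cells, fixed with 1% formaldehyde and cut with DpnII. These neurons express an odorant receptor gene, so the Taar cluster is seen here in cells sorted for another receptor choice. The deposited list pools both replicates into 7367 boundaries, positions across which few contacts pass, each an interval of 5 kb with a class and a strength. It holds no replicate values and no read numbers, so the distances below have no replicate error, and their depth is unknown. A boundary list carries no expression values, so the cell type could not be checked against its markers.

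Strength is the authors' own score, with a scale the sources used here do not give, and is used only to place boundaries within the list. It ran from 0.20 to 4.26 with a median of 0.563, and the deposited class changed from weak to strong at 0.5. Of the boundaries 4052 were strong, with a median strength of 0.932. Chromosome 10 held 355 boundaries, 203 of them strong.

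All 15 Taar genes lay in 1 interval between neighbouring boundaries, with no boundary inside the cluster. From the start of Taar1 to the end of Taar9 the cluster spans chr10:23920356-24109534, or 189 kb. The interval that holds it ran for 320 kb between boundary midpoints, so the cluster filled 59.1% of it. The remainder was unequal on the 2 sides. The left edge of the cluster was 107.9 kb from the left boundary, and the right edge was 23.0 kb from the right boundary, a ratio of 4.70. Each such distance is uncertain by at least 2.5 kb, since a boundary is placed only to a 5 kb interval.

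**Figure D1:**
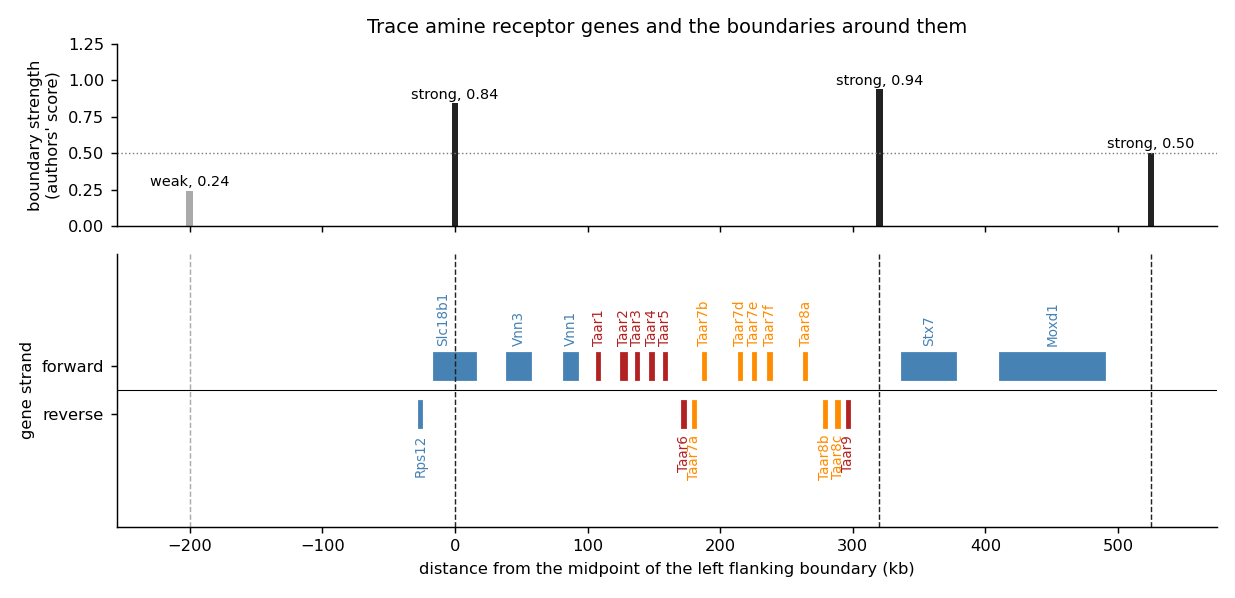
Map of the locus. The upper panel gives the strength of each boundary (authors' score, black for strong and grey for weak, dotted line at 0.5) and the lower panel the genes on each strand (red for the 7 single-copy Taar genes, orange for Taar7 and Taar8 genes, blue for flanking genes) against distance in kb from the left flanking boundary. All 15 Taar genes sit between the strong boundaries of strength 0.84 and 0.94, which are 320 kb apart.

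Both boundaries that close the interval were of the strong class and near the middle of that class in strength. The left one, at chr10:23810001-23815000, had a strength of 0.844, at the 68.2nd percentile of all boundaries and the 42.2nd of the strong ones. It lay inside Slc18b1, the gene of a vesicular polyamine transporter, and overlapped 1 of its coding exons. The right one, at chr10:24130001-24135000, had a strength of 0.937, at the 72.7th percentile of all boundaries and the 50.4th of the strong ones. It overlapped exon sequence of the noncoding gene Gm40614, whose start lay 0.020 kb from the boundary midpoint. The nearest protein-coding start to it was that of Stx7, at 16.8 kb. On chromosome 10 the left boundary ranked 114 and the right one 99 of 355.

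Intervals with a strong boundary at both ends numbered 2214 of 7347, or 30.1%. Taking for each interval the weaker of its 2 boundaries, the value for the Taar interval, 0.844, lay at the 91.3rd percentile. Neither boundary reached the upper quartile of strength, which began at 0.983.

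Further out the boundaries were of mixed strength. To the left came a weak boundary of 0.242 at chr10:23610001-23615000, over exon sequence of the noncoding gene 4930520K02Rik, and then a strong one of 1.46 at chr10:23090001-23095000, which overlapped no gene. To the right came a boundary of 0.504 at chr10:24335001-24340000, which overlapped no gene and was barely past the strong threshold. Next on that side was one of 1.84 at chr10:24605001-24610000, 12.1 kb from the start of Ccn2 and ranked 17 of 355 on the chromosome. The neighbouring intervals were 200 kb long on the left and 205 kb on the right.

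In these distances the start of a gene is the 5′ end of its annotated model. For 6 of the 7 members that end was the first base of the start codon. The Taar1 model alone began ahead of it, by 50 bases. The annotated models of the other members therefore carry no sequence ahead of the coding part, and true transcription start sites may lie further upstream. Of the members 6 had a single exon in the annotation, and Taar2 had 2.

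For Taar1 and Taar4 the extract of RefSeq sequences of GRCm38.p6 used here had no entry. It matched the other 5 of the 7 members. Their first 24 coding bases are shown because every distance was measured from their first base, at chr10:23938572-23938595 (+), chr10:23949558-23949581 (+), chr10:23970706-23970729 (+), chr10:23985623-23985646 (-) and chr10:24109511-24109534 (-). The capitals mark the start codon, and 24 bases are the whole first exon of Taar2.
Taar2: ATGgcatcttttgaagcccagcag
Taar3: ATGgatctaatatacattcccgaa
Taar5: ATGagagctgtcctcctcccgggc
Taar6: ATGggcagtaactcgtctccgccc
Taar9: ATGacaagcgacttctccccagaa

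The members were not close copies of one another. Over 21 pairs of the 7 coding sequences, identity over aligned bases ran from 56.0% to 69.8% with a median of 58.9%. Their closest relatives lay elsewhere in the cluster for some: Taar6 shared 79.7% with Taar8b and Taar9 shared 73.0% with Taar7a. Taar2 and Taar3, which are neighbours, were each other's closest at 66.5%. By contrast the Taar7 genes shared 91.7% to 95.3% (10 pairs) and the Taar8 genes 96.6% to 98.1% (3 pairs).

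No member began at a boundary. A start was counted when it fell within 10 kb of either end of a boundary interval or inside it. By that rule 0 of the 7 members were called, and 0 of all 15 Taar genes. Of all protein-coding genes 13.0% were called by it (2827 of 21755). With the boundary interval alone the members' count was also 0, against 3.45% of all genes, and with strong boundaries alone it was 0 against 8.39%. Both settings are narrower forms of the first rule, so neither count could have been above 0. The 7 genes share 1 interval and are neighbours, so they amount to a single observation of this locus. No test was made on a list chosen with earlier results known.

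The 7 starts ran from the left part of the interval to its right end. The first 5 members by position, Taar1 to Taar5, lay on the forward strand and nearer to the left boundary. Taar6 and Taar9, on the reverse strand, lay nearer to the right one. Strand did not follow the nearer boundary over the whole cluster. Taar7b, Taar7d, Taar7e, Taar7f and Taar8a lay on the forward strand and nearer to the right boundary.

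Taar1 (chr10:23920356-23921469) began 107.9 kb from the left boundary and 212.1 kb from the right one. It is the outermost member on the left, after Vnn3 and Vnn1 in the same interval. Its distance to the nearest boundary was at the 74.0th percentile of all protein-coding genes.

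Taar2 (chr10:23938572-23941583) began 126.1 kb from the left and 193.9 kb from the right boundary. Taar3 (chr10:23949558-23950589), a receptor for isoamylamine, began 137.1 kb from the left and 182.9 kb from the right. Taar4 (chr10:23960494-23961537), a receptor for phenylethylamine, began 148.0 kb from the left and 172.0 kb from the right. These 3 genes stepped toward the middle of the interval, at 39.4%, 42.8% and 46.2% of its length from the left.

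Taar5 (chr10:23970706-23971719), the receptor for trimethylamine, an odour of male mouse urine, lay nearest to the middle. It began 158.2 kb from the left and 161.8 kb from the right boundary, at 49.4% of the interval. Its nearest boundary was farther than that of any other Taar gene and at the 85.9th percentile of all protein-coding genes.

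Taar6 (chr10:23984609-23985646) began 173.1 kb from the left and 146.9 kb from the right boundary, just past the middle at 54.1%. It was the first reverse-strand gene of the cluster. It stands 7.84 kb from the start of Taar7a, the first of the multi-copy genes.

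Taar9 (chr10:24108488-24109534) stood apart from the other members. It began 297.0 kb from the left boundary and 23.0 kb from the right one, at 92.8% of the interval. Its nearest boundary was at the 21.4th percentile of all protein-coding genes, and that of Taar5 was 6.89 times as far. Between Taar6 and Taar9 lay all 8 Taar7 and Taar8 genes.

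Over the 7 members the distance to the nearest boundary had a median of 137.1 kb and ranged from 23.0 to 158.2 kb. The median was 61.1 kb over all protein-coding genes and 115.8 kb over 1135 odorant receptor genes. Because both closing boundaries were strong, the median to strong boundaries alone was the same 137.1 kb for the members. It was 102.4 kb for all protein-coding genes and 339.3 kb for odorant receptor genes. To boundaries in the upper quartile of strength the median was 647.0 kb for the members, 281.3 kb for all protein-coding genes and 529.5 kb for odorant receptor genes. The members' median was thus above that of all genes by each of the 3 measures. It was above that of odorant receptor genes for any boundary and for the upper quartile, and below it for strong boundaries. Taar9 was the exception among the members, with its 23.0 kb below the all-gene median to any boundary and to strong ones. These medians are descriptions, since neighbouring genes are not independent.

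**Figure D2:**
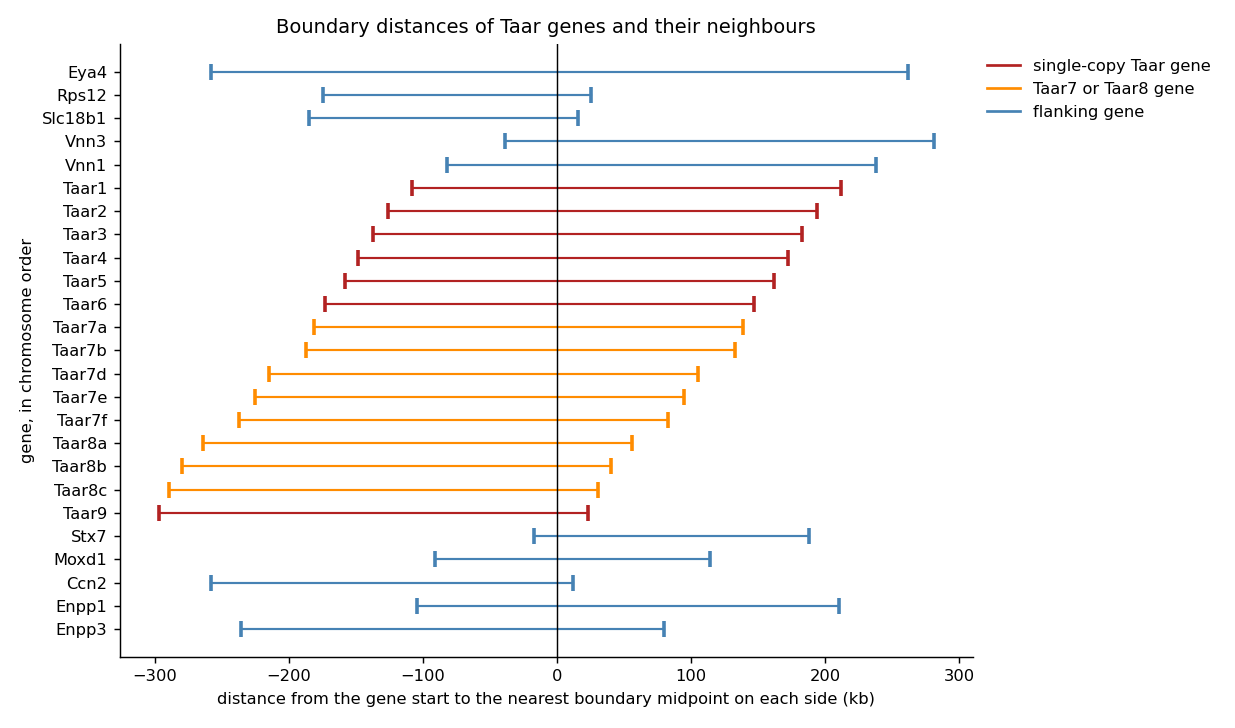
Distance in kb from each gene start (vertical line at 0) to the nearest boundary midpoint on the left and on the right, for the 15 Taar genes and 10 flanking genes in chromosome order. Red marks the single-copy Taar genes, orange the Taar7 and Taar8 genes and blue flanking genes. From Taar1 to Taar9 the left distance grows from 107.9 to 297.0 kb as the right one shrinks from 212.1 to 23.0 kb.

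The multi-copy genes filled the right part of the cluster. The 5 Taar7 genes began 139.0 kb (Taar7a) to 83.0 kb (Taar7f) from the right boundary, and the 3 Taar8 genes 56.0 kb (Taar8a), 40.2 kb (Taar8b) and 30.6 kb (Taar8c) from it. All 8 were nearer to the right boundary, so of the 15 genes 5 were nearest to the left one and 10 to the right one. Starts of neighbouring Taar genes were 6.46 to 27.3 kb apart, with a median of 11.0 kb over 14 pairs. The boundaries' own 5 kb intervals are not much finer than the shortest of these gaps. The cluster also holds the pseudogenes Taar7c-ps, Gm15136 and Gm6884.

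Wider windows changed the call at the right end of the cluster. With the interval widened by 25 kb, Taar9 alone was called, 1 of 7 members, where 25.0% of all protein-coding genes were. With 50 kb Taar9 was again the only member called, joined by Taar8b and Taar8c, against 44.0% of all genes. Whole gene bodies, in place of starts, met no boundary widened by 10 kb for any Taar gene, against 25.7% of all genes. That share is over genes of every length, and a longer gene has more chance to meet a boundary. The Taar gene models span only 1014 to 3012 bases, so for them this rule is close to the rule by starts.

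The 2 sides of the cluster differed in what separated it from other genes. On the left, Vnn3 and Vnn1, genes of the vanin family of pantetheinases, shared the interval with the Taar genes and had no boundary between them and Taar1. Vnn3 began 39.0 kb and Vnn1 82.2 kb from the left boundary, and Vnn1 began 25.7 kb from the cluster. The left boundary instead cut through Slc18b1, whose start lay 15.5 kb to its left and whose gene model ended 15.5 kb past its midpoint. Rps12, a ribosomal protein gene of the small subunit, began 25.2 kb to the left of that boundary.

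On the right, a boundary stood between Taar9 and the first non-receptor protein-coding gene. Stx7, the gene of an endosomal syntaxin, began 16.8 kb past it and 39.8 kb from the cluster. Moxd1, the gene of a copper monooxygenase, followed in the same interval at 91.0 kb from the boundary. Taar9 was the farther of the pair from that boundary by 6.16 kb, little more than the width of a boundary interval.

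Of the 10 flanking genes, only Ccn2, which encodes a matricellular growth factor, began in a boundary window. It lay 12.1 kb from the midpoint of the boundary of strength 1.84. Eya4, a transcriptional coactivator gene on the left, began 258.3 kb from its nearest boundary. Enpp1 and Enpp3, nucleotide pyrophosphatase genes on the right, began 104.7 and 79.7 kb from theirs. There were 2 boundaries between the cluster and the start of Eya4, and 3 between it and the start of Enpp1.

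The Taar interval was ordinary in length and crowded with genes. Its 320 kb lay at the 62.1st percentile of the 7347 intervals, whose median was 265 kb with quartiles of 185 and 405 kb. It held 17 protein-coding starts, namely 15 Taar genes and the 2 vanin genes, against a median of 2. Only 114 intervals (1.55%) held as many or more. Among the 636 intervals of 300 to 340 kb 10 did (1.57%). In 32 of the 114 more than 50% of the starts belonged to odorant, vomeronasal, bitter taste, formyl peptide or trace amine receptor genes.

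**Figure D3:**
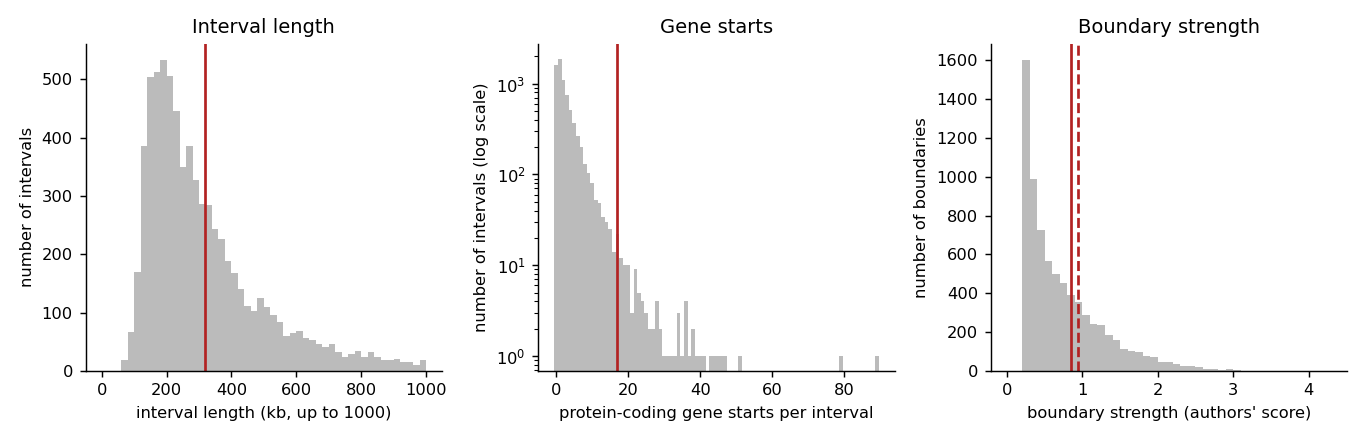
The Taar interval among all intervals and boundaries of the list. Grey bars count intervals by length in kb (left, drawn to 1000 kb) and by protein-coding gene starts (middle, log scale), and boundaries by strength (right). Red lines mark 320 kb, 17 gene starts, and the flanking strengths of 0.844 (solid, left side) and 0.937 (dashed, right side).

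The intervals most like it in length and in both strengths held other kinds of genes. The nearest, on chromosome 5, was 310 kb long with strengths of 0.849 and 0.943 and held Pdgfa, a growth factor gene. The next, also on chromosome 5, was 340 kb long with strengths of 0.884 and 0.968 and held Atp8a1, Gm21905, Gm5108 and Grxcr1. The other, on chromosome 1, was 320 kb long with strengths of 0.928 and 0.936 and held Ipo9 and Nav1. Likeness was the Euclidean distance over the 3 values, each divided by its SD over all intervals, and came to 0.0556, 0.141 and 0.163. None of these intervals had more than 4 protein-coding starts.

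Other receptor families were set beside the Taar cluster by the same rule. Runs of at least 5 protein-coding genes less than 500 kb apart gave 33 odorant receptor, 10 vomeronasal type 1, 9 vomeronasal type 2 and 3 bitter taste receptor clusters. The 7 formyl peptide receptor genes formed no such run. Of these 55 clusters 20 had no boundary inside, as the Taar cluster had none. Among the 35 with 10 or more genes 8 had none. These 35 held up to 227 genes, and the shortest spanned 280 kb, so all were longer than the Taar cluster. With genes less than 200 kb apart 25 of 61 clusters had no boundary inside, and 10 of the 36 with 10 or more genes. The odorant receptor clusters had a median span of 587 kb, against 189 kb for the Taar cluster. Not all of the 20 clusters are separate observations, since Vmn2r29 to Vmn2r37 on chromosome 7 shares its interval with another of them. How much repeated sequence the clusters of other families hold was not measured.

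Among clusters of 100 to 300 kb there were 7 of other families, and 5 of them had no boundary inside. These were Olfr1416 to Olfr12 on chromosome 1 (147 kb), Olfr62 to Olfr1328 on chromosome 4 (280 kb), Olfr1344 to Olfr1350 on chromosome 7 (133 kb), Vmn1r32 to Vmn1r39 on chromosome 6 (258 kb) and Vmn1r85 to Vmn1r89 on chromosome 7 (137 kb). The range of spans was set after the Taar span was known. Like the Taar cluster, 6 of the 7 had a boundary midpoint within 50 kb of at least 1 edge, and 3 had one within 50 kb of both. The Taar cluster had one at its right edge only. With 1 Taar cluster no test of a difference was possible.

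By number of genes, the nearest odorant receptor cluster to the 15 Taar genes was Olfr310 to Olfr292 on chromosome 7, with 15 genes in 429 kb and 0 boundaries inside. Its edges were 351.0 and 695.0 kb from the boundaries beyond them, far more than the 107.9 and 23.0 kb of the Taar cluster. The nearest vomeronasal type 1 cluster, Vmn1r40 to Vmn1r54 on chromosome 6, held 15 genes in 564 kb and 1 boundary. The nearest vomeronasal type 2 cluster, Vmn2r29 to Vmn2r37 on chromosome 7, held 17 genes in 1992 kb and 0 boundaries. The nearest bitter taste cluster, Tas2r120 to Tas2r140 on chromosome 6, held 18 genes in 399 kb and 0 boundaries. All 15 Taar genes took up less room than any of these 4.

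**Figure D4:**
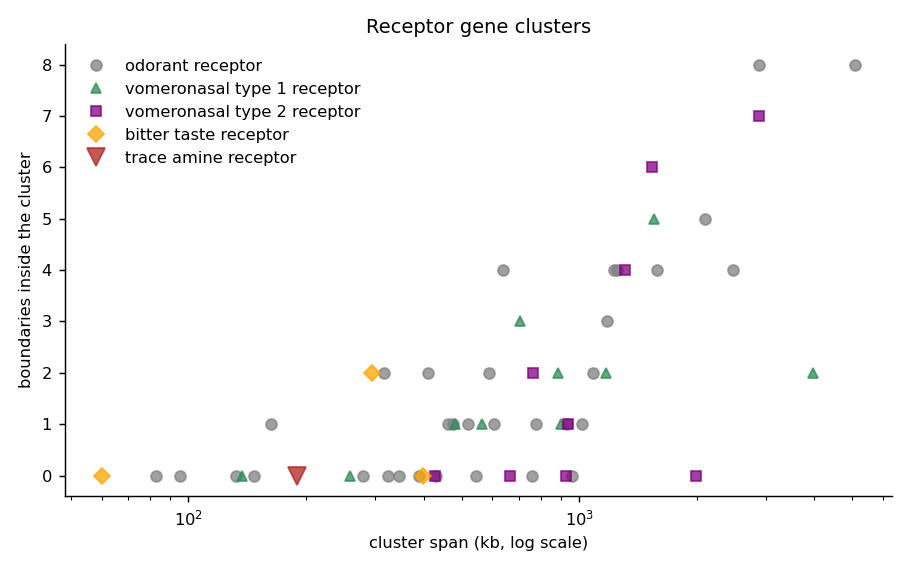
Number of boundaries inside each receptor gene cluster (vertical axis) against the cluster span in kb (horizontal axis, log scale). Each symbol is 1 cluster, by family; the red triangle is the Taar cluster, at 189 kb with 0 boundaries inside. The clusters with 5 or more boundaries all lie far to its right.

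CTCF, a zinc finger protein that binds DNA in a given orientation, is known to hold many domain boundaries. Matches to its motif, searched on both strands of GRCm38, were absent between the first and last Taar gene. A stretch without a match is common, since 27.0% of all intervals, with a median length of 265 kb, held none. The 320 kb interval of the Taar genes held 2. The 1 at its right end lay in the boundary interval itself, on the reverse strand, 0.86 kb to the left of the midpoint and in an intron of Gm40614. The other lay on the forward strand between Vnn3 and Vnn1, 68.4 kb from the left midpoint and in no annotated gene.

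The left boundary had no match in its window of 25 kb, the nearest being a forward one 18.1 kb to the left of the midpoint. Of all 7367 boundary windows of that length 23.9% held a match (1763), and of the strong ones 30.2%. Both matches of the interval, and the one nearest the left boundary, which lies outside it, are printed 5′ to 3′ along the strand of the motif with 24 bases on each side. They are shown because they are the matches inside the interval and the nearest one to each of its boundaries. Beyond the right boundary the next matches lay 41.3 and 59.7 kb from its midpoint. Capitals mark the match. In order they lie at chr10:23794338-23794397 (+), chr10:23880864-23880923 (+) and chr10:24131611-24131670 (-), flanks included.
Left of the left boundary: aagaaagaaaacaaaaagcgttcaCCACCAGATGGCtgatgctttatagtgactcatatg
Between Vnn3 and Vnn1: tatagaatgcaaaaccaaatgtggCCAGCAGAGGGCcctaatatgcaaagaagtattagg
In the right boundary: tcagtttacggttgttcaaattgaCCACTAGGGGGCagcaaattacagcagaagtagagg

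A looser form of the motif, of the same length but with 3 letters left free, includes every match of the first and gave 26 matches in the interval, 11 of them between the first and last Taar gene, 4 in the left window and 2 in the right one. This form was found in 76.0% of all boundary windows. A match is a stretch of sequence and not a measured binding site.

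The sequence of the cluster was uneven in its share of 32-base sequences that occur only once. How well the Hi-C reads themselves could be placed was not measured. In the interval 79.8% of 32-base sequences occurred once on the assembled chromosomes. The single-copy stretch from Taar1 to Taar6 had 91.6% and the stretch from Taar7a to Taar8c 74.0%. A low share was not particular to the multi-copy part. The stretch from the left boundary to Taar1, which holds no Taar gene, had 77.0%. Within the gene models themselves the single-copy members had 96.3% to 100% unique 32-base sequences, and the Taar7 and Taar8 genes 19.4% (Taar8c) to 53.0% (Taar7d).

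The part of such repeated sequence in the lack of boundaries among the Taar7 and Taar8 genes was not tested. Both boundary intervals were largely unique, at 89.8% on the left and 97.1% on the right. In 4 of the 63 bins of 5 kb under 50% of sequences were unique, and the lowest had 21.0%. That bin lay 60 kb from the left midpoint, between Vnn3 and Vnn1.

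Over the whole interval GC content was somewhat below the median of all intervals and DpnII site density was above it. GC was 41.3% over the interval, at the 38.1st percentile, against a median of 42.6% over all intervals. The DpnII site GATC occurred 2.58 times per kb, at the 73.9th percentile, against a median of 2.46. No bin of the interval was without one (6 to 25 per bin, median 13). The left boundary interval had 5 such sites and the right one 11.

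**Figure D5:**
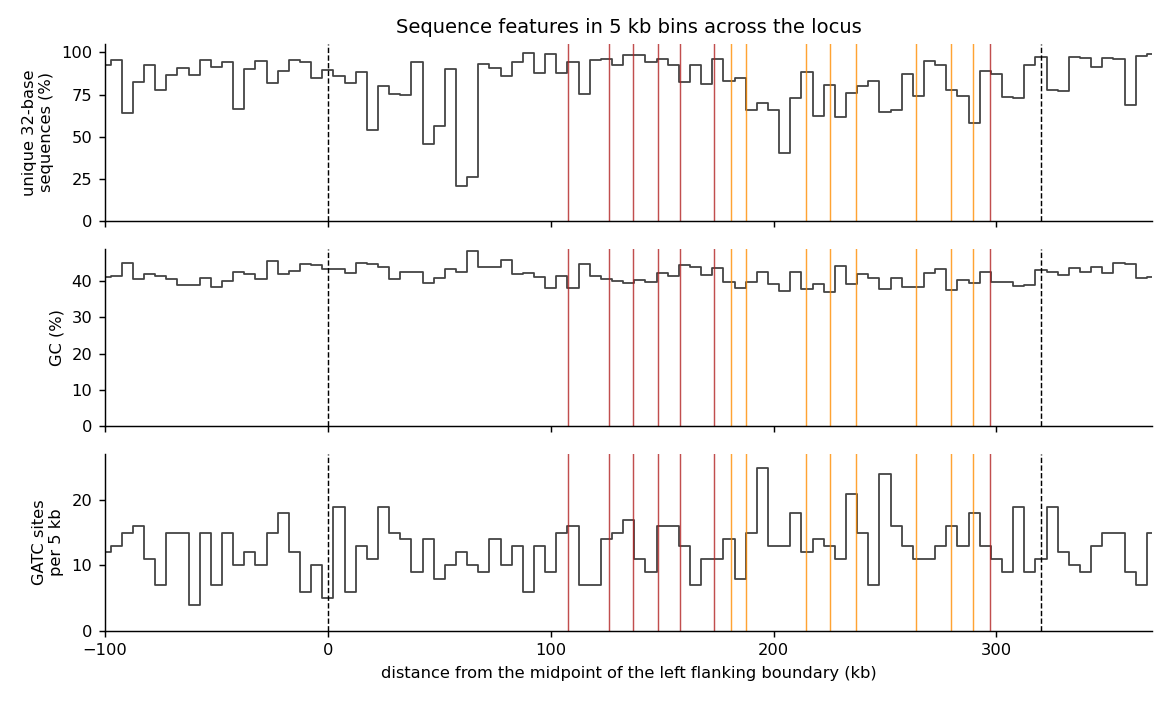
Unique 32-base sequences in percent (top), GC content in percent (middle) and GATC sites (bottom) in bins of 5 kb against distance in kb from the left flanking boundary. Dashed lines are the flanking boundaries, red lines the starts of the single-copy Taar genes and orange lines those of the Taar7 and Taar8 genes. Uniqueness is high from Taar1 to Taar6 (91.6%) and lower from Taar7a to Taar8c (74.0%) and from the left boundary to Taar1 (77.0%).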

How the data were processed

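Hi-C libraries of 2 biological replicates were pooled by the authors, who, per the series design text, mapped them to GRCm38, combined the contacts and called boundaries on the combined matrix. The deposited list gives each boundary's interval, class and strength, a score assigned by the authors with an unstated scale. Caller, aligner, window and read filters were not given in these sources. Contact matrices and insulation and compartment tracks were not used here. Coordinates were joined to GRCm38.p6 (C57BL/6J, another strain than the mice) and GENCODE M21. Distances ran from gene model starts to boundary midpoints. Intervals were spans between neighbouring midpoints. Percentiles give the share of all values at or below the one named. Scripts used Python 3.11.15, pandas 2.3.3 and Biopython 1.88, and were tested on simulated boundaries with known distances. Coding identity came from global alignments. The 7 members, the lists and the alternatives were chosen with earlier results of these data known. Named genes were the members, the other Taar genes, 5 protein-coding genes on each side, those nearest the flanking boundaries, those of the 3 most similar autosomal intervals, and the end genes of the receptor clusters nearest in gene number; clusters of 100 to 300 kb and the noncoding genes were added after their values were seen.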

Additional observations from a re-analysis of the deposited data

How the results depend on the processing

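No paired analysis was possible because the list pools both replicates, and for the same reason no replicate could be left out. The interval that holds the cluster was 320 kb with strong boundaries alone and with boundaries under 100 kb apart merged. It was the same with the span taken from the 7 members or with Taar pseudogenes added. None of these settings could have given another length at this locus. Both flanking boundaries are strong, and the next boundaries beyond them lie 200 and 205 kb away. The outermost Taar genes, Taar1 and Taar9, are both members, and the Taar pseudogene lies between them. With the upper quartile of strength alone the interval was 1515 kb, since neither flanking boundary is in that quartile. The members' median distance to the nearest boundary then became 647.0 kb in place of 137.1 kb. Measured to the interval edge that median was 134.6 kb. From any annotated transcript start it was unchanged, and could not have changed, since each member has only 1 annotated transcript. The count of members at a boundary was 0 with the interval alone, with strong boundaries alone and with gene bodies, and 1 with the interval widened by 25 kb or by 50 kb. With the interval alone and with strong boundaries alone it could not have been above 0. Both are narrower forms of the main rule, which already called 0. Receptor clusters of other families with no boundary inside numbered 20 with genes less than 500 kb apart and 25 with less than 200 kb. The looser CTCF motif gave 26 matches in the interval in place of 2. Depth could not be assessed, as the list holds no counts.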
